A study of Mus musculus with 12 samples.

Results

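The TGF-β and BMP signaling genes of mouse adipocytes carrying WT, T166A or T166D PPARγ were taken by symbol from the deposited counts of 55573 genes. The rule took the bone morphogenetic proteins (Bmp), growth differentiation factors (Gdf, without Gdf15), inhibin and activin β subunits (Inhb), the 3 TGF-β ligands, the TGF-β, activin and BMP receptors and the SMAD proteins. It matched 48 genes, and 42 of them had 10 or more counts summed over the 12 libraries. Of the other 6, Bmp10, Gdf1 and Inhbc had no count, Bmp15 and Inhbe had 1 count each and Gdf2 had 5. RNA came from adipocytes grown out of the SVF, the stromal and vascular cells obtained by digesting fat, of the inguinal subcutaneous depot of C57BL/6 mice. The mice were homozygous for WT PPARγ, for T166A (TA), which cannot be phosphorylated at this threonine, or for T166D (TD), which mimics the phosphorylated state, and each genotype gave 4 libraries. All 12 cultures received the same adipogenic medium with 850 nM insulin, 1 nM triiodothyronine, 0.5 mM IBMX, 125 nM indomethacin and dexamethasone for 4 days, then insulin and triiodothyronine, and were harvested on day 8. The mutations are carried by the whole animal, so the precursor cells and any other cell of the culture carried them too. The labels do not say whether the 4 libraries came from separate mice or from separate dishes, and a p-value then measures only the spread between these libraries.

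Ligands of the TGF-β superfamily are secreted dimers that join a pair of type II receptors to a pair of type I receptors at the cell surface. The type II receptor phosphorylates the type I receptor, which phosphorylates receptor-regulated SMADs (R-SMADs). TGF-β and activin ligands act mainly through SMAD2 and SMAD3, and BMPs through SMAD1, SMAD5 and SMAD9. The R-SMADs enter the nucleus with the common partner SMAD4, and SMAD6 and SMAD7 inhibit the pathway. In fat, TGF-β is known to hold back adipogenesis, BMP2 and BMP4 to commit precursors to the adipocyte lineage, BMP7 and BMP8B to act on thermogenic fat, and ALK7, the product of Acvr1c, to restrain lipolysis in mature adipocytes.

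The libraries held 16553324 to 20324286 counts, with all WT libraries (18823619 or more) deeper than those of both mutants. Counts cannot show the codon change, but the Pparg level was lower in TD than in WT (log2 fold change -0.58, SE 0.095, adjusted p = 0.000429 by edgeR's quasi-likelihood test with Benjamini-Hochberg adjustment) and TA did not differ detectably from WT (0.078, adjusted p = 0.67). Markers of other cell types moved with the genotype. The summed level of 10 adipocyte markers was 15702 to 18565 CPM (counts scaled to the normalized library size) in WT, 15584 to 21299 in TA and 10301 to 12461 in TD, and 8 of the 10 fell in TD against WT. Of 9 tested preadipocyte and fibroblast markers 7 rose in TD and 6 in TA against WT, with summed levels of 1301 to 1522 CPM in WT, 1686 to 2653 in TA and 1882 to 2531 in TD. Of 10 endothelial markers 9 rose in TD and 5 in TA against WT, with summed levels of 40.6 to 72.7 CPM in WT, 72.2 to 118.7 in TA and 127.4 to 164 in TD. Skeletal muscle markers summed to 6.19 to 10.4 CPM in WT, 13.3 to 43.5 in TA and 14.6 to 161.7 in TD, with all 8 tested markers higher in TD than in WT and with TD replicates 3 and 4 highest. Of the defining muscle markers, Myod1 was at 0 in 9 libraries and Myog, Mymk and Ckm in 4 each, the preadipocyte marker Dlk1 was at 0 in 11, and no adipocyte, endothelial or macrophage marker was at 0 in any library. Macrophage markers overlapped between WT and TD (1 of 10 rose), smooth muscle and pericyte markers rose in TD for 7 of 10 (with Des, which the muscle list also holds) and fell for 1 (Cspg4), and rose in TA for 6 of 10, and 2 of 4 tested mesothelial and 2 of 9 tested cell division markers rose in TD. In RNA of a whole culture, fewer cells of a type and less RNA per cell cannot be told apart, and the part of these cell types in the results on TGF-β and BMP genes was not tested.

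**Figure D1:**
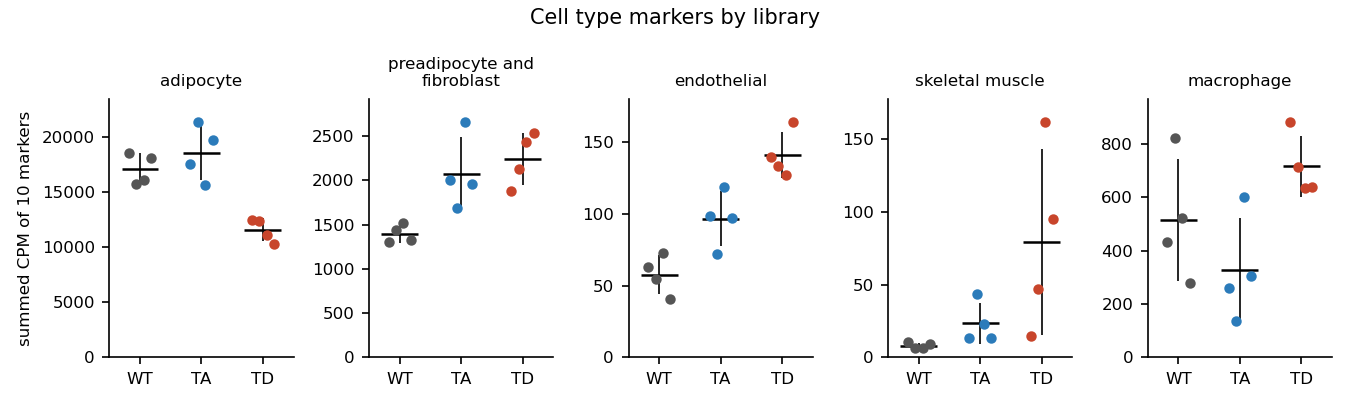
Summed CPM of 10 markers of each of 5 cell types in each library of WT, TA and TD, with the mean as a bar and the SD as a line. The 4 TD libraries sat between 10301 and 12461 CPM for adipocyte markers, under each WT and TA library, and between 127.4 and 164 CPM for endothelial markers, above each WT and TA library.

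The leading genes of the set in WT were a co-receptor and receptors, whereas most ligands and the receptors Acvr2b and Bmpr1b lay low. To compare genes, the level was expressed as CPM per kb of exon. In WT the highest mean levels belonged to the co-receptor Tgfbr3 (46.6 CPM per kb, SD 4.14) and the type II receptor Tgfbr2 (36.2, SD 6.5), followed by the type I receptor Acvr1c (19.1, SD 1.7), Smad4 (18.6, SD 1.78) and, within a similar range, the procollagen proteinase Bmp1 (15.6), Bmpr1a (15.4, SD 1.32) and the ligand Gdf10 (14.5). Levels of Acvr1c and Smad4 differed by less than their SD. The 3 TGF-β ligands lay between 3.46 and 6.15 CPM per kb and the activin subunits Inhba and Inhbb at 0.8 and 1.16. No Bmp ligand reached 1 CPM per kb in WT, the highest being Bmp8a (0.814) and Bmp6 (0.776). In TD the order of the leading pair was the other way round, with Tgfbr2 at 73.8 (SD 12.6) and Tgfbr3 at 66.2 (SD 4.72), a gap smaller than the SD of Tgfbr2. In TA the pair was nearly level, with Tgfbr2 at 51.9 (SD 10.4) and Tgfbr3 at 51.7 (SD 7.39).

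**Figure D2:**
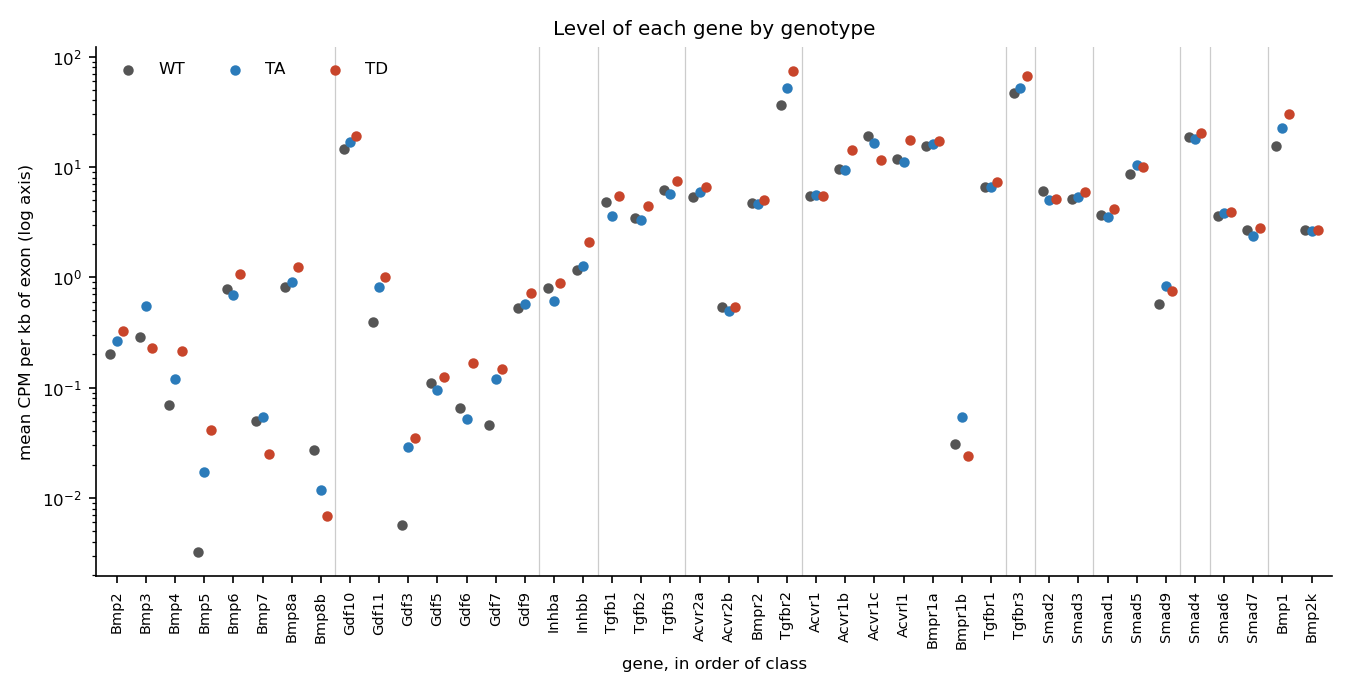
Mean level of the 42 genes with 10 or more counts in each genotype, in CPM per kb of exon on a log axis, grouped by class between grey lines. Tgfbr2 and Tgfbr3 stood highest in each genotype (36.2 and 46.6 in WT, 73.8 and 66.2 in TD) and most Bmp and Gdf ligands lay under 1.

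Of the 42 genes 33 passed the filter on low counts and were tested, 13 of them passed the test in at least 1 comparison and 20 in none. Against WT, 11 genes differed in TD (33.3% of those tested, where 29.2% of all 15117 tested genes did) and 7 in TA (21.2%, where 11.1% of all genes did). Between TD and TA 8 genes differed (24.2%, where 16.7% of all genes did). In TD 9 of the 11 were higher than in WT, where 15.1% of all genes were higher and 14.2% lower. In TA 5 of the 7 were higher, with 6.72% of all genes higher and 4.41% lower, and TD exceeded TA in 6 of the 8, with 7.33% of all genes higher and 9.37% lower. The median log2 fold change over the 33 genes was 0.23 for TD against WT, 0.036 for TA against WT and 0.21 for TD against TA, and over all genes it was 0.011, -0.0056 and 0.023. The libraries compared did not overlap for 12 genes in TD against WT (10 higher and 2 lower, with 15.8% and 16.4% of all genes), for 5 in TA against WT (4 and 1, with 7.71% and 5.85%) and for 9 in TD against TA (7 and 2, with 9.32% and 10.6%). The 3 comparisons share libraries pairwise and are not independent of each other. For TA against WT the count was 1 to 4 without WT replicate 1 (2), 3 (4) or 4 (3) or TA replicate 1 (1), 3 (2) or 4 (4), and for TD against TA it was 14 without TA replicate 3. With scaling by library totals only, the share of higher genes among all calls went from 51.5% to 64.6% in TD against WT and from 43.9% to 64.7% in TD against TA, and 12 of 13 and 10 of 12 calls of the set were higher. Without TD replicates 3 and 4, the libraries highest in muscle markers, 6 genes of the set differed between TD and WT and 3 between TD and TA, and the calls over all genes fell from 4418 to 1516 and from 2524 to 634. That fit had fewer TD libraries, which by itself can end calls, and no other pair of TD libraries was left out. Whether calls lost in it depend on muscle markers was not tested.

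**Figure D3:**
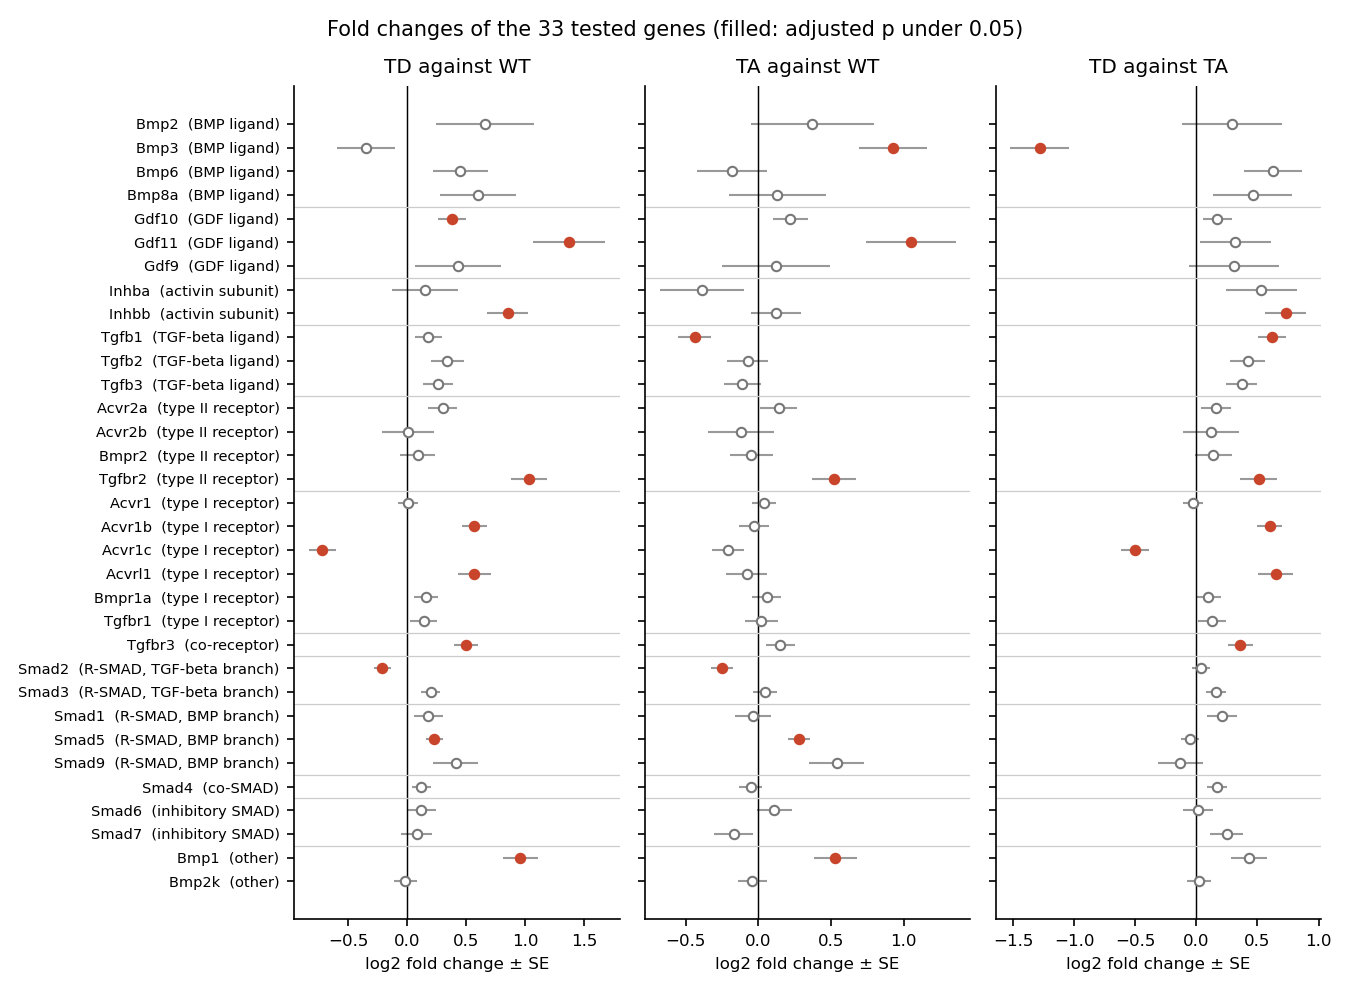
Log2 fold change (point) and its standard error (line) of the 33 tested genes in each comparison of genotypes, ordered by class. Filled points have an adjusted p under 0.05, which holds for 11, 7 and 8 genes, and Tgfbr2 is filled in each panel.

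Among type II receptors only Tgfbr2 passed the test, and it did so in each comparison. Tgfbr2, on chromosome 9 (116084293 to 116175360, minus strand, GRCm38), encodes the receptor that binds the TGF-β ligands. It measured 254, 340, 345 and 247 CPM in the WT libraries, 462, 323, 520 and 394 in TA and 499, 539, 657 and 722 in TD. All 4 TD libraries lay above all WT libraries, whereas TA overlapped with both. Tgfbr2 was 2.04-fold higher in TD than in WT (log2 fold change 1.03, SE 0.154, adjusted p = 0.000247 by edgeR's quasi-likelihood test), 1.43-fold higher in TA than in WT (adjusted p = 0.0377) and 1.42-fold higher in TD than in TA (adjusted p = 0.0318). The TD against WT difference was called under each alternative processing. The TA against WT call was lost without WT replicate 1 or 4 or TA replicate 1, 3 or 4 (0.41 to 0.54) and with scaling by library totals only (0.51, adjusted p = 0.0518). The TD against TA call was lost without TA replicate 2 or 4 or TD replicate 3 or 4 (0.40 to 0.48), and without both of the latter the value was 0.29 (adjusted p = 0.4).

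No other type II receptor passed the test. Acvr2a, which binds activins and some BMPs, measured 27.2 to 32.4 CPM in WT and 36.2 to 38.6 in TD, which do not overlap, but its log2 fold change of 0.30 did not pass the test (adjusted p = 0.086). It passed with only the 2 genotypes fitted (adjusted p = 0.00672), without TA replicate 4 (0.00926), without the filter on low counts (0.0232) and with library totals only (0.36, adjusted p = 0.0434). Acvr2a shares 446 bases of exon with Orc4 on the opposite strand, and since the strand setting of the counting is not stated its value is uncertain. For Bmpr2, the type II receptor of BMPs, the log2 fold change of TD against WT was 0.088 (SE 0.149), with TA libraries spread from 53.3 to 107.6 CPM. Acvr2b measured 1.45 to 2.37 CPM over the 12 libraries and its fold changes lay between -0.12 and 0.12. Tgfbr2 made up 77% (SD 2.74) of the summed type II receptor level per kb in WT, 82.4% (SD 3.41) in TA and 85.6% (SD 1.95) in TD, and the lowest TD library (83.8%) exceeded the highest WT library (79.6%).

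Tgfbr3, or betaglycan, is a co-receptor that presents TGF-β ligands, above all TGF-β2, and binds inhibin. Its level was 267, 312, 332 and 310 CPM in WT, 371, 282, 386 and 315 in TA and 397, 418, 454 and 463 in TD. TD stood above each WT and each TA library. The gene was 1.42-fold higher in TD than in WT (log2 fold change 0.50, SE 0.0999, adjusted p = 0.00152) and 1.28-fold higher than in TA (0.36, adjusted p = 0.0227), and TA against WT gave 0.15 (adjusted p = 0.388). The TD against TA call was lost without TA replicate 2 (0.28), TA replicate 4 (0.33), TD replicate 3 (0.33) or TD replicate 4 (0.32), and without both of the latter (0.27, adjusted p = 0.268).

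Type I receptors changed in both directions in TD. Acvr1c fell, whereas Acvr1b and Acvrl1 rose, and none of the 6 tested type I receptors passed the test in TA against WT by edgeR, DESeq2 or limma-voom, with 0 at an unadjusted p under 0.05 in each. Acvr1c, on chromosome 2 (58267453 to 58357895, minus strand, GRCm38), encodes ALK7, a receptor of activin B and several GDFs that is abundant in adipocytes. It measured 159, 170, 183 and 196 CPM in WT, 162, 191, 127 and 132 in TA and 120, 107, 103 and 101 in TD. Each TD library was below each WT and TA library, and the TA libraries split into a pair near the WT level and a pair between WT and TD. The level in TD was 0.609 times that in WT (log2 fold change -0.72, SE 0.114, adjusted p = 0.000356) and 0.706 times that in TA (-0.50, adjusted p = 0.00713), and the latter call was lost without TD replicates 3 and 4 (-0.42, adjusted p = 0.128). TA against WT gave -0.21 (adjusted p = 0.259), and -0.34 (adjusted p = 0.0309) once TA replicate 2 was left out. Adipocyte markers were also lowest in TD, in the ranges given above.

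Acvr1b and Acvrl1 had the same order of genotypes. Acvr1b encodes ALK4, the main type I receptor of activins. It measured 34.8, 47.1, 47 and 41.2 CPM in WT, 39.4, 36.2, 46.9 and 43.8 in TA and 56.6, 65.3, 62.2 and 68.2 in TD. TD was above all other libraries, at 1.48-fold the WT level (log2 fold change 0.57, SE 0.104, adjusted p = 0.000857) and 1.52-fold the TA level (0.60, adjusted p = 0.00114). Acvrl1 encodes ALK1, a receptor of BMP9 and BMP10 that is best known from endothelial cells. It measured 43, 54.3, 59.1 and 43.1 CPM in WT, 42.6, 35.5, 55.5 and 54.7 in TA and 61, 73.9, 77 and 84 in TD. The TD libraries again lay above the other 8, by 1.48-fold against WT (log2 fold change 0.57, SE 0.141, adjusted p = 0.00675) and 1.57-fold against TA (0.65, adjusted p = 0.00569). Without TD replicates 3 and 4 neither Acvrl1 difference passed the test (0.44 and 0.52, adjusted p = 0.122 and 0.111). TA against WT gave -0.081 for Acvrl1 (adjusted p = 0.783). Endothelial markers rose for 9 of 10 in TD and 5 of 10 in TA against WT, in the ranges given above, and their part in the Acvrl1 values was not tested.

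The remaining type I receptors stayed within narrow ranges. Bmpr1a, the main type I receptor of BMP2 and BMP4, measured 90.1 to 107.2 CPM in WT, 81.2 to 119.8 in TA and 101.5 to 115.3 in TD. Tgfbr1, or ALK5, the type I partner of Tgfbr2, gave a log2 fold change of 0.14 (SE 0.113, adjusted p = 0.363) for TD against WT and 0.13 for TD against TA. Acvr1, or ALK2, gave 0.0065 (SE 0.0824) and -0.029. Taken as shares of the summed type I receptor level per kb, Acvr1c made up 28.2% (SD 1.52) in WT, 25.3% (SD 5.04) in TA and 16% (SD 2.13) in TD, so that it had the highest share in WT and lay below Acvrl1, Bmpr1a and Acvr1b in TD. Acvrl1 had 17.2% (SD 2.09) in WT and 23.7% (SD 1.92) in TD, and Acvr1b 14.2% (SD 1.2) and 19.5% (SD 0.674). Bmpr1a held 22.7% (SD 1.57) in WT and 23.4% (SD 0.34) in TD. These shares are a description without a test.

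**Figure D4:**
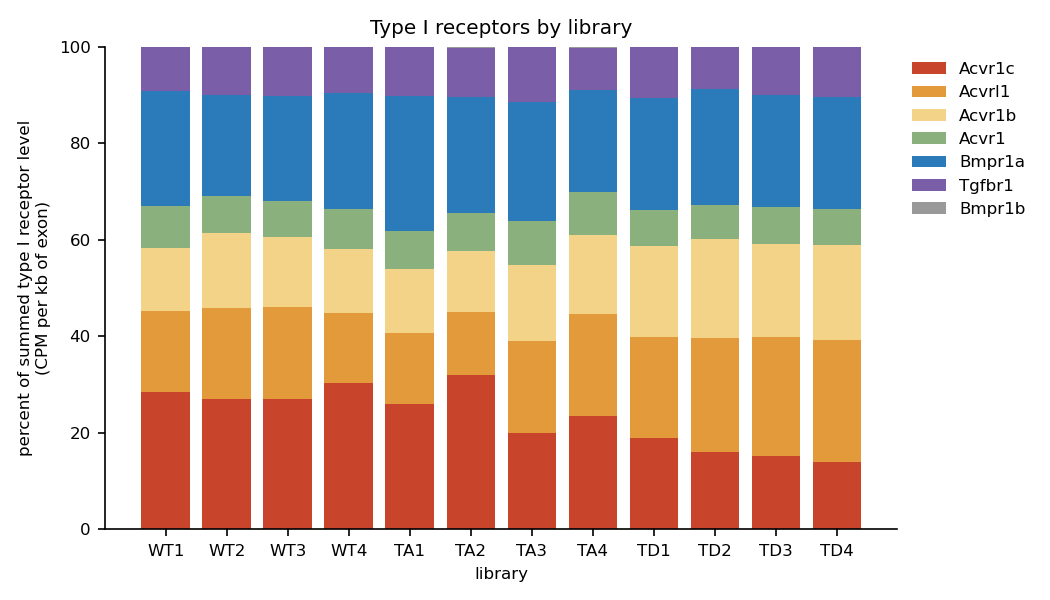
Share of each type I receptor in the summed level of the 7 type I receptors (CPM per kb of exon, percent) in each of the 12 libraries. The share of Acvr1c was 27 to 30.2% in WT, 20 to 32% in TA and 13.9 to 18.9% in TD, and Bmpr1b is too low to be seen (at most 0.145%).

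The sequences upstream of Tgfbr2 and Acvr1c are shown because these receptors had the largest rise and the largest fall of receptors in TD. Letters were taken from RefSeq (GRCm38.p6), end just before an annotated start site or, for Acvr1c, before the first exon base of GENCODE, and are given 5′ to 3′ on the strand of the gene, with matches to the searched motifs in capitals. The motifs were a PPAR response element of the DR1 type (a direct repeat of AGGTCA spaced by any single base), the lone AGGTCA, which is part of the former, the SMAD-binding CAGAC and the GC-rich SMAD motif GGCGCC, each searched on both strands over 250 bases before a start site.
Tgfbr2, chr9:116175364-116175613, minus strand: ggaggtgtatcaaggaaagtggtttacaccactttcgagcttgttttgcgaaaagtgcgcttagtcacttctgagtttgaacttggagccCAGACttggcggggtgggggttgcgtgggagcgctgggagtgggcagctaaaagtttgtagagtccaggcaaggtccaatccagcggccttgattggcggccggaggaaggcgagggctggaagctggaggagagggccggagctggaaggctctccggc
Acvr1c, chr2:58357896-58358008, minus strand: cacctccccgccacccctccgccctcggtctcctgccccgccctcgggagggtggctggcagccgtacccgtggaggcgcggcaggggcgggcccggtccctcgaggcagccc
The Tgfbr2 sequence held 1 CAGAC, a motif that 42.2% of the 32851 promoters of the same length hold, and no match to the other motifs. The Acvr1c sequence held no match, nor did the 250 bases before a second annotated start site of the gene. AGGTCA occurs in 14% of promoters, GGCGCC in 9.59% and the full DR1 in 0.0335%. A promoter was listed for 8 of the 13 genes that passed the test. Among these 8, CAGAC was found upstream of Gdf10, Tgfbr2 and a start site of Smad5, GGCGCC upstream of another start site of Smad5, and neither AGGTCA form upstream of any.

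**Figure D5:**
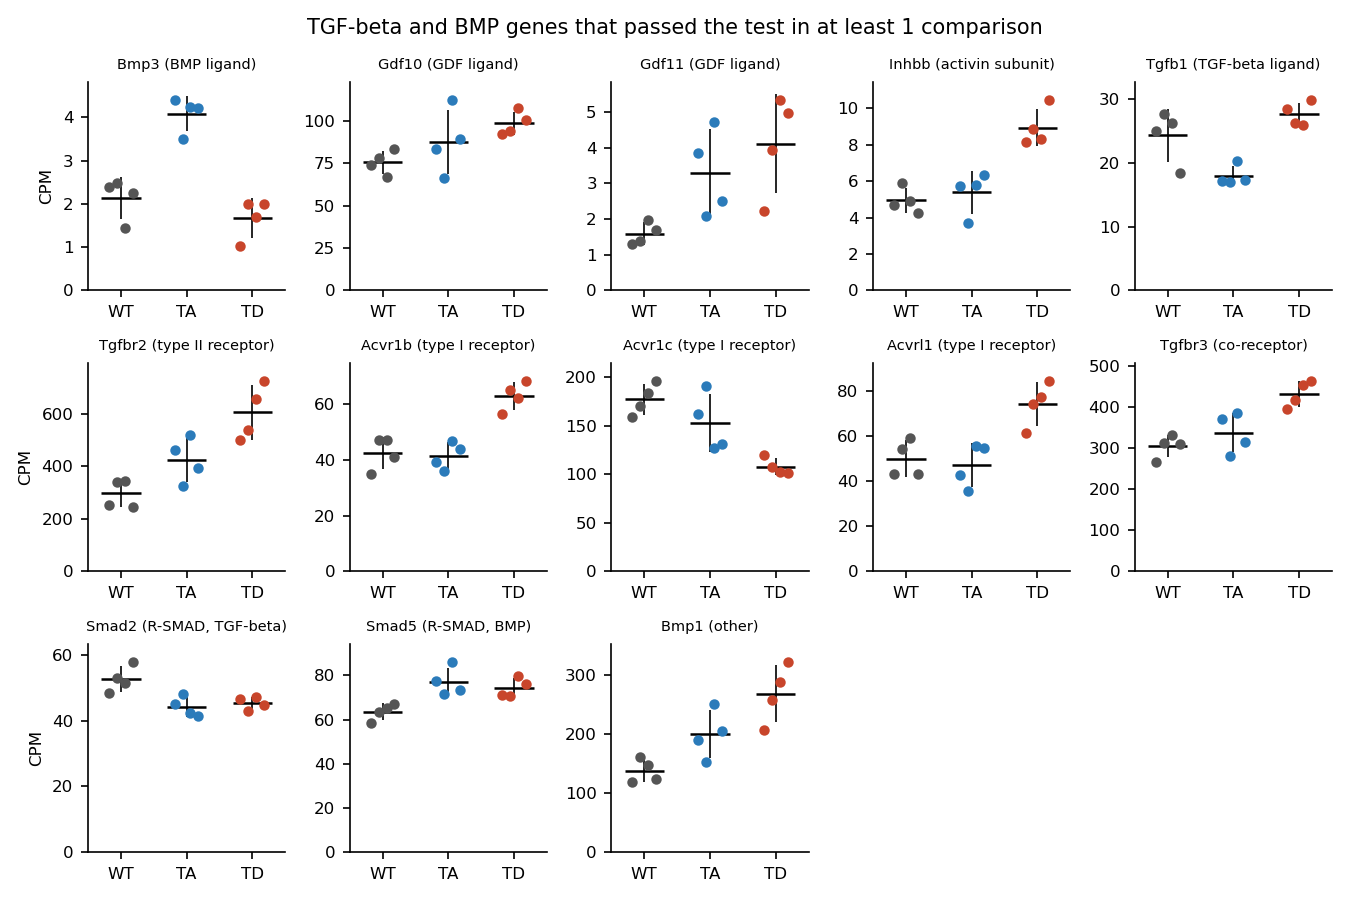
CPM in each library for the 13 genes that passed the test in at least 1 comparison, with the mean as a bar and the SD as a line, and each axis starting at 0. Tgfbr2 rose from WT (mean 296.6) over TA (424.8) to TD (604.4), Acvr1c was lowest in TD (107.8), and Bmp3 was highest in TA (4.09).

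The mean levels of all 3 TGF-β ligands were lowest in TA and highest in TD, though only Tgfb1 passed the test. Tgfb1, the isoform best known from immune and stromal cells, measured 25, 27.6, 26.2 and 18.3 CPM in WT, 17.2, 17, 20.2 and 17.2 in TA and 28.3, 26.3, 25.9 and 29.7 in TD. TA and TD did not overlap, and the lowest WT library lay within the TA range. Tgfb1 fell in TA against WT (log2 fold change -0.44, SE 0.116, adjusted p = 0.0216) and was 1.54-fold higher in TD than in TA (0.62, adjusted p = 0.002), with 0.18 for TD against WT (adjusted p = 0.25). The call in TA against WT was lost without WT replicate 1, 2 or 3 or TA replicate 1 (-0.43 to -0.37). It was also lost with only the 2 genotypes fitted (-0.44, adjusted p = 0.051). Tgfb2 and Tgfb3 gave 0.42 and 0.37 in TD against TA and missed the threshold (adjusted p = 0.0542 and 0.0574), although their TD and TA libraries did not overlap (as for 19.9% of all genes). Both passed it in DESeq2 (adjusted p = 0.0337 and 0.0413). Macrophages also express Tgfb1, and the 10 macrophage markers summed to 278.4 to 822.8 CPM in WT, 137.8 to 602 in TA and 633.4 to 880.9 in TD. In TD against TA all 10 had positive log2 fold changes (median 1.03) and 3 passed the test. In TA against WT 0 of 10 passed (median -0.68). The part of macrophages in the Tgfb1 values was not tested.

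Of the activin subunits, Inhbb differed and Inhba did not. Inhbb encodes the subunit of activin B, a ligand of ALK7, and measured 4.72, 5.91, 4.91 and 4.27 CPM in WT, 5.73, 3.69, 5.79 and 6.34 in TA and 8.18, 8.89, 8.3 and 10.4 in TD. Each TD library exceeded the other 8 libraries. The gene was 1.8-fold higher in TD than in WT (log2 fold change 0.85, SE 0.17, adjusted p = 0.00161) and 1.66-fold higher than in TA (0.73, adjusted p = 0.0086), and the latter call was lost without TD replicates 3 and 4 (0.66, adjusted p = 0.105). In the same libraries its receptor gene Acvr1c was lowest. Inhba, the subunit of activin A, ranged from 2.06 to 7.28 CPM with overlap between the genotypes, and its values of 0.15 for TD against WT and 0.53 for TD against TA did not pass the test (adjusted p = 0.736 and 0.225).

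Among GDF ligands Gdf10 and Gdf11 rose in TD. Gdf10, also called BMP3b, was the most abundant ligand of the set per kb of exon. It measured 73.9, 78.1, 67.3 and 83.3 CPM in WT, 83.4, 66.5, 112.2 and 89.5 in TA and 92.2, 94.3, 107.5 and 100.7 in TD. TD lay above WT without overlap and TA spanned both. The rise was 1.3-fold (log2 fold change 0.38, SE 0.12, adjusted p = 0.0237), and its call was lost without WT replicate 1 (0.38) or 3 (0.33) or TD replicate 3 (0.34) or 4 (0.37). It was also lost without both TD replicates 3 and 4 (0.30, adjusted p = 0.222).

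Gdf11, a close relative of myostatin, had the largest fold change of the set at low counts. It had 25 to 40 counts per library in WT, 34 to 85 in TA and 39 to 100 in TD. In CPM it measured 1.3, 1.39, 1.98 and 1.7 CPM in WT, 3.86, 2.09, 4.73 and 2.5 in TA and 2.21, 3.94, 5.32 and 4.98 in TD. All TA and TD libraries were above the WT libraries, and TA and TD overlapped. Gdf11 was 2.58-fold higher in TD (log2 fold change 1.37, SE 0.305, adjusted p = 0.00343) and 2.07-fold higher in TA (1.05, SE 0.308, adjusted p = 0.0371) than in WT. The TD difference was lost without TD replicates 3 and 4 (0.95, adjusted p = 0.107). The TA difference was lost without WT replicate 1, 2 or 4 or TA replicate 1 or 3 (0.82 to 1.08) and in limma-voom (0.99, adjusted p = 0.0819). Gdf9, known as an oocyte ligand, had means of 1.08 CPM in WT, 1.17 in TA and 1.46 in TD with fold changes of 0.43, 0.12 and 0.31 that did not pass the test.

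Of the BMP ligands only Bmp3 passed the test, and it did so against TA from both sides. Bmp3 is an atypical member that antagonizes osteogenic BMPs. It measured 2.39, 2.48, 1.44 and 2.25 CPM in WT, 4.39, 3.51, 4.23 and 4.22 in TA and 1.02, 1.99, 1.7 and 1.99 in TD. The TA libraries were above all others, and WT and TD overlapped. Bmp3 was 1.91-fold higher in TA than in WT (log2 fold change 0.93, SE 0.234, adjusted p = 0.0162), and its level in TD was 0.412 times that in TA (-1.28, SE 0.241, adjusted p = 0.00208). TD against WT gave -0.35 (adjusted p = 0.317). The rise in TA was lost without WT replicate 3 (0.78, adjusted p = 0.0534), the lowest WT library. Bmp2, Bmp6 and Bmp8a had positive values of 0.66, 0.45 and 0.60 in TD against WT with standard errors of 0.415, 0.234 and 0.326, and none passed the test in any comparison. Bmp6 shares 224 exon bases with Txndc5, which had 63967 counts against 721, on the opposite strand, and Bmp8a shares 8.74% of its 50-base windows with Bmp8b, so both values are uncertain.

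The 9 genes that did not pass the filter were Bmp4, Bmp5, Bmp7, Bmp8b, Gdf3, Gdf5, Gdf6, Gdf7 and Bmpr1b. Bmp4 had 2 to 4 counts per library in WT, 1 to 10 in TA and 4 to 13 in TD, and its CPM in TD (0.235 to 0.7) lay above WT (0.0991 to 0.219). Gdf6 had 2 to 8 counts in WT, 1 to 5 in TA and 7 to 17 in TD, with TD above the other 8 libraries on the CPM scale, by 0.397 against 0.396 in the closest pair. Gdf7 had 0 to 3 counts in WT, 0 to 6 in TA and 3 to 5 in TD. In CPM it measured 0.16 to 0.27 in TD, 0 to 0.156 in WT and 0 to 0.333 in TA. None of the 9 passed edgeR's test when the filter was left out, where an unadjusted p under 0.05 was reached by 3 of them for TD against WT, by 0 for TA against WT and by 1 for TD against TA. Bmp7 had 0 to 11 counts and Bmp8b 0 to 4, and differences of their low levels were not detectable at this depth. Bmpr1b, a type I receptor of BMPs, had 0 to 9 counts per library.

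The SMADs had log2 fold changes between -0.25 and 0.54. No SMAD passed the test between TD and TA by edgeR, DESeq2 or limma-voom. An unadjusted p under 0.05 was reached by 1 of the 8 in edgeR (Smad4, 0.17), by 0 in DESeq2 and by 1 in limma-voom. With scaling by library totals only, Smad4 passed edgeR's test (0.25, adjusted p = 0.036). Smad5, an R-SMAD of the BMP branch, measured 58.3, 63.3, 65.4 and 67.1 CPM in WT, 77.4, 71.7, 85.8 and 73.5 in TA and 71.1, 70.5, 79.8 and 76.1 in TD. All mutant libraries lay above WT. The gene was 1.21-fold higher in TA (log2 fold change 0.28, SE 0.0753, adjusted p = 0.0238) and 1.17-fold higher in TD (0.23, SE 0.0753, adjusted p = 0.0319). The TD call was lost without WT replicate 1 (0.19) or 2 (0.22) or TD replicate 3 (0.19) or 4 (0.22), and the TA call without WT replicate 1 (0.24) or TA replicate 1 (0.28) or 3 (0.22). The TD call was also lost without both TD replicates 3 and 4 (0.16, adjusted p = 0.326) and without the filter on low counts (0.23, adjusted p = 0.0697). The TA call was also lost with only the 2 genotypes fitted (0.28, adjusted p = 0.0534).

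Smad2, an R-SMAD of the TGF-β branch, moved the other way. It measured 48.3, 52.8, 51.4 and 57.6 CPM in WT, 44.9, 48, 42.1 and 41.3 in TA and 46.7, 42.9, 47 and 44.7 in TD. Each mutant library was below each WT library, by little in the closest case. The log2 fold change was -0.25 in TA (SE 0.0747, adjusted p = 0.0376) and -0.21 in TD (SE 0.0746, adjusted p = 0.041). Each of these calls was lost under 12 of 22 alternatives, at values of -0.27 to -0.21 in TA and -0.23 to -0.15 in TD that include leaving out WT replicate 2, 3 or 4, TA replicate 1, 3 or 4 or TD replicate 3 for the former and WT replicate 2, 3 or 4 or any TD replicate for the latter. Smad3 gave 0.20 in TD against WT (SE 0.0807, adjusted p = 0.0746) and Smad4 0.12 (adjusted p = 0.282). Smad9 gave 0.54 in TA against WT (adjusted p = 0.0806), with 3.89 to 4.86 CPM in TA and 2.18 to 3.82 in WT. Smad1 and the inhibitory Smad6 and Smad7 had fold changes between -0.17 and 0.25 in all 3 comparisons and none passed the test.

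Bmp1 and Bmp2k match the rule by name but encode no BMP ligand. Bmp1 is a secreted metalloproteinase that processes procollagens and releases ligands from the antagonist chordin. It measured 120, 162, 148 and 124 CPM in WT, 190, 153, 252 and 206 in TA and 208, 258, 289 and 322 in TD. TD lay above WT without overlap, and TA overlapped with both. Bmp1 was 1.95-fold higher in TD (log2 fold change 0.96, SE 0.148, adjusted p = 0.000293) and 1.45-fold higher in TA (0.53, adjusted p = 0.0272) than in WT, and TD against TA gave 0.43 (adjusted p = 0.0566). The TD against TA difference passed in DESeq2 (0.42, adjusted p = 0.0265) and without TA replicate 3 (0.55) or TD replicate 1 (0.53). It also passed with library totals only (0.50), without the filter on low counts (0.44) and with the replicate block (0.42). The TA call was lost without WT replicate 1 (0.47) or 4 (0.49) or TA replicate 1 (0.56), 3 (0.41) or 4 (0.51). Preadipocyte and fibroblast markers rose in both mutants, in the ranges given above. Bmp2k, a kinase of endocytosis, gave values between -0.042 and 0.024.

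Beyond the genes of the rule, 89 pathway genes in 7 lists were looked up, and 75 of them were tested. Against WT, 25 rose and 9 fell in TD (45.3%, beside 29.2% of all genes) and 9 rose and 7 fell in TA (21.3%, beside 11.1%), and TD exceeded TA in 22 and was below it in 4 (34.7%, beside 16.7%). The median log2 fold changes of the 75 genes were 0.24, 0.043 and 0.21, beside 0.011, -0.0056 and 0.023 over all genes. The share called in each list is likewise set beside the share over all genes. Without TD replicates 3 and 4 the calls fell from 34 to 18 in TD against WT and from 26 to 6 in TD against TA, and the latter count was 11 to 16 without TA replicate 1, 2 or 4 or TD replicate 2, 3 or 4.

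Of 13 tested secreted antagonists 5 rose in TD against WT (38.5% called, beside 29.2%). The largest rise was that of Bmper (0.78, adjusted p = 8.02e-05), which binds BMPs outside the cell and which also led the list in TA against WT (0.48, adjusted p = 0.00323). In TA against WT 2 rose and 2 fell (30.8%, beside 11.1%), and the largest fall was that of Grem1, which encodes the BMP antagonist gremlin (-2.94, adjusted p = 0.000964). Grem1 measured 1.34 to 3.27 CPM in WT, 0.123 to 0.409 in TA and 0.431 to 1.64 in TD. TA lay below all other libraries, by 0.409 against 0.431 in the closest pair, and these low levels limit the size of the fall. For TD against WT Grem1 gave -1.05 and did not pass the test (adjusted p = 0.0636). TD exceeded TA for 5 antagonists (38.5%, beside 16.7%), led by Grem1 (1.89, adjusted p = 0.0213).

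Among 14 tested genes of ligand latency and activation 5 rose and 2 fell in TD against WT (50% called, beside 29.2%). Fbn2, a microfibril protein that holds latent ligands, rose most (1.00, adjusted p = 0.0203), and Pcsk6, a convertase that cleaves ligand precursors, fell most in TD (-1.25, adjusted p = 0.000102) and in TA (-1.16, adjusted p = 0.000166). Pcsk6 measured 28.9 to 41.4 CPM in WT, 11.6 to 21.5 in TA and 13.4 to 17.7 in TD. In TA against WT 3 rose and 3 fell (42.9%, beside 11.1%), and decorin (Dcn), a proteoglycan that binds TGF-β, led the rises (0.54, adjusted p = 0.0138). In TD against TA 6 rose, led by Nrros (1.00, adjusted p = 0.0449), and only Furin fell (-0.24, adjusted p = 0.0486), which makes 50% called beside 16.7%. Nrros measured 2.21 to 5.57 CPM in TA and 5.27 to 8.3 in TD, which overlap. The part of macrophages, whose markers are given above, in the Nrros values was not tested.

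Of 6 tested co-receptors and decoys 2 rose in TD and 2 in TA against WT (33.3% in each, beside 29.2% and 11.1%). Eng, or endoglin, an endothelial co-receptor that works with ALK1, led in TD (1.19, adjusted p = 8.02e-05), at 10.5 to 16.2 CPM in WT, 18.4 to 27.3 in TA and 26.2 to 34.2 in TD. Tmeff2 led in TA (0.75, adjusted p = 0.00486). TD exceeded TA for 2 genes (33.3%, beside 16.7%), of which Eng was the larger (0.51, adjusted p = 0.0193). Of the 2 tested other ligands, the inhibin α subunit Inha was higher in TD than in TA (0.60, adjusted p = 0.0365), and Inha gave 0.35 (adjusted p = 0.16) for TD against WT.

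Intracellular regulators moved both ways. Of 20 tested, 3 rose and 5 fell in TD against WT (40% called, beside 29.2%), with Pmepa1, an inhibitor of R-SMAD activation and a TGF-β target, highest (0.63, adjusted p = 0.0115) and Tob1, a repressor of BMP SMADs, lowest (-0.50, adjusted p = 0.00124). In TA against WT only Smurf1, a ubiquitin ligase of SMADs and receptors, passed the test (-0.43, adjusted p = 0.00111), which is 5% called beside 11.1%. In TD against TA 3 rose, led by Pmepa1 (0.62, adjusted p = 0.0214), and Tob1 fell (-0.40, adjusted p = 0.0102), which is 20% beside 16.7%.

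Of 12 genes listed as TGF-β targets 8 rose and 1 fell in TD against WT (75%, where 29.2% of all genes were called). The largest rise was that of fibronectin, Fn1 (0.92, adjusted p = 0.00115), and the fall that of Cdkn1a (-0.45, adjusted p = 0.000816). In TA against WT 25% were called (beside 11.1%), and Snai2 had the larger of 2 rises (0.63, adjusted p = 0.0438). TD exceeded TA in 3 (33.3% called in all, beside 16.7%), led by Junb (0.82, adjusted p = 2.47e-05), and Cdkn1a was lower (-0.43, adjusted p = 0.00211). Junb shares 173 exon bases with Prdx2 on the opposite strand, which leaves its value uncertain. Fn1, Col1a1, Acta2 and Snai2 are also abundant in fibroblasts. Preadipocyte and fibroblast markers rose for 7 of 9 in TD and 6 of 9 in TA against WT (median log2 fold changes 0.84 and 0.75). For TD against TA 2 of 9 rose and 0 fell (22.2% called, beside 16.7%), with a median of -0.023 and a highest value of 0.59. In TA against WT Fn1 gave 0.44, Col1a1 0.12, Acta2 0.44 and Snai2 0.63, and in TD against TA 0.48, 0.61, 0.11 and 0.21. The part of fibroblasts in these values was not tested. Of 8 tested BMP targets 2 rose and 1 fell in TD against WT (37.5% called, beside 29.2%), with Msx1 (0.79, adjusted p = 0.011) and Id1 (-0.34, adjusted p = 0.00954) at the ends. In TA against WT none of the 8 passed edgeR's test, DESeq2 or limma-voom, with 1, 2 and 1 at an unadjusted p under 0.05. In TD against TA 37.5% were called (beside 16.7%), and Sgk1 had the larger of 2 rises (0.51, adjusted p = 0.00612) and Id1 fell (-0.29, adjusted p = 0.0387).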

How the data were processed

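The 12 libraries were grouped by the genotype and replicate number of their labels. The authors deposited raw read counts per gene, without normalization, as 1 table and again library by library, and both forms were equal. Per the labels, the submitters' processing notes name bcl2fastq 2.17.1.14, cutadapt 1.9.1, HISAT2 2.0.1, HTSeq 0.6.1 and GRCm38; the strand setting of the counting is not given in the sources used here. Overlapping genes on opposite strands could therefore share reads.

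Symbols and exon lengths came from GENCODE M21 (99.8% of identifiers found) and sequences from RefSeq. The tools were edgeR 4.0.16, DESeq2 1.42.0 and limma 3.58.1, run in R 4.3.3. Low genes were removed with filterByExpr (minimum count 10, minimum total 15), which left 15117, and libraries were scaled by TMM (factors 0.957 to 1.04). A quasi-likelihood model with genotype only was fitted to all 12 libraries, and p-values (two-sided) were adjusted by Benjamini-Hochberg over the genes tested, with a threshold of 0.05. The common biological coefficient of variation was 12.9%. The standard error is the size of the log2 fold change divided by the root of F. CPM used TMM library sizes. The script was tested on simulated data with known changes.

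The set, the 7 pathway lists and the 8 marker lists were chosen with earlier results of these data known. Each gene of the set with 10 or more counts is given by class, those called with their value in every library, and of each pathway list the called gene with the largest rise and fall per comparison. Not every gene that this rule names is reported here. Libraries of a genotype differed by more than counting error in every pair. Same-numbered libraries did not deviate together (correlations of -0.237 to 0.196 over 12 pairs), so the numbers were not used as pairs. Depth, at 16553324 counts or more per library, limits the genes under 10 counts per library; limits from counts cover counting error only. Alternatives were DESeq2, other scalings and filters, limma-voom, a replicate block, only the genotypes compared, a fold change minimum of 0.5 on the log2 scale, leaving out each library, and, chosen after seeing the data, leaving out TD replicates 3 and 4.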

Additional observations from a re-analysis of the deposited data

Results flagged for a closer look

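In 3 of the 99 groups of 4 libraries formed by 33 genes and 3 genotypes, a single library stood apart from the other 3, by a gap past the critical value of Dixon's test on log2 CPM, and chance gives about 5% of groups. Tgfb1 in TA replicate 3 was highest, at 20.2 CPM against 17 to 17.2 in the other TA libraries (gap 0.935 of the range). Tgfb3 in TA replicate 2 was lowest, at 15.3 CPM against 20.1 to 21.1 (0.850). Bmp3 in TA replicate 2 was lowest, at 3.51 CPM against 4.22 to 4.39 (0.830). Each value still lay on the same side of every TD library as the rest of its group.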

How the results depend on the processing

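No gene of the set that passed the test changed direction under any of the alternatives run. Of the calls of the set, 6 of 11 in TD against WT, 0 of 7 in TA against WT and 3 of 8 in TD against TA held under every alternative. Without TD replicates 3 and 4, TD against WT gave 6 genes of the set and 18 other pathway genes, and TD against TA 3 and 6. For TA against WT the count of the set was 4 with only the 2 genotypes fitted and 4 with a log2 fold change above 0.5, and the latter gave 8 other pathway genes, and 14 in TD against TA. Leaving out 1 library at a time gave 8 to 12 genes of the set in TD against WT, 1 to 9 in TA against WT and 6 to 14 in TD against TA, and 27 to 36, 12 to 23 and 11 to 34 other pathway genes. With the replicate block the set had 11, 6 and 11 calls and the pathway lists 34, 14 and 23. The block ended both calls of Smad2 (adjusted p = 0.0681 in TD and 0.0673 in TA) and called Tgfb2 in TD against both genotypes and Tgfb3 and Bmp1 in TD against TA, and over all genes it gave 4246, 1560 and 2488 calls in place of 4418, 1683 and 2524. With 4 pairs per comparison, same-numbered libraries had correlations of -0.237 to 0.196 and those of different numbers -0.257 to 0.264, and a library correlated best with its own number in 5 of 24 cases. Scaling by library totals only moved the median of all genes in TD against TA from 0.0234 to 0.1005 (log2) and raised the calls of the set to 13 in TD against WT and 12 in TD against TA. The cause of these differences was not tested. Depth limits Gdf11, Bmp3 and the other ligands near 1 CPM, the antagonist gene Grem1 and the 9 genes under the filter.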
